A study of Mus musculus with 24 samples.

Results

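The question was whether the effect of the Q175 allele on striatal gene expression depended on the presence of Tyrobp. It was answered with the interaction of the 2 genotypes, the Q175 effect in animals without Tyrobp minus the Q175 effect in animals with it, computed for each gene from raw read counts. All 24 of the 24 libraries of the series entered, 1 library an animal. There were 4 groups of 6 mice (3 male, 3 female) on the C57BL/6 strain: wild type (WT), deletion of Tyrobp (Tyrobp-KO), heterozygous Q175 (Q175), and heterozygous Q175 with deletion of Tyrobp (Q175_Tyrobp-KO). Q175 models Huntington's disease by a long CAG repeat placed in the animals' own Htt gene, which encodes huntingtin. It is carried in every cell, and so is the deletion, so neither is limited to a cell type. RNA came from the striatum of a single hemisphere, and the age of the animals was not stated. The animal numbers carry a prefix that all Tyrobp-KO and Q175_Tyrobp-KO mice shared. The 6 Q175 mice had another prefix, shared by WT replicate 3 alone, and the other 5 WT mice had one of their own. The Q175 effect with Tyrobp present, and through it the interaction, therefore cannot be told apart from any difference that the prefixes mark. The same holds for the Tyrobp effect, with or without Q175.

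Tyrobp (also DAP12) is a membrane adaptor of microglia. It pairs with receptors such as Trem2 and, once phosphorylated, recruits the kinase Syk. In diseased brain, microglia move from a homeostatic program to one named disease-associated, and Trem2 and Tyrobp are known to be needed for the full form of that program. In Huntington's disease and its models the projection neurons of the striatum lose much of their characteristic expression while microglia and astrocytes react. A negative interaction means that a gene was relatively lower in Q175_Tyrobp-KO than the separate effects of the allele and the deletion add up to on the log2 scale. A positive interaction means that it was relatively higher.

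Total counts per library were 25482686 to 34626720. Levels are given as CPM, a count scaled to the library's total over the genes tested, times a normalization factor (TMM). These factors were 0.953 to 1.06. Before those adjustments, a millionth of the library total was 25.5 to 34.6 reads, depending on the library. Tyrobp (chromosome 7, 30413760 to 30417585) was at 6.56 to 9.89 CPM in WT and 5.70 to 11.8 CPM in Q175, against 0.214 to 0.448 CPM in Tyrobp-KO and 0.218 to 0.323 CPM in Q175_Tyrobp-KO. The 12 libraries without Tyrobp did not overlap with the other 12. Htt had an interaction of 0.12 ± 0.08 (SE). The defining genes of striatal projection neurons were abundant, with Ppp1r1b, which encodes the dopamine-regulated phosphatase inhibitor DARPP-32, at 674 CPM or more in every library. Markers of neighbouring tissue varied between libraries. The mean log2 CPM of 19 choroid plexus and ependyma genes was 5.08 in Q175 replicate 3, between 2.21 and 3.05 in Q175 replicate 5 and Q175_Tyrobp-KO replicates 4 and 6, and at most 1.99 elsewhere. That of 20 cortical excitatory neuron genes ranged from 3.19 to 5.77 and was 5.08 to 5.77 in the Tyrobp-KO group. Replicates 1 to 3 were the males and 4 to 6 the females of each group.

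No gene passed the test of the interaction at an edgeR adjusted p under 0.05, 0 of 19667 (0%). Ryr1 came closest (edgeR adjusted p 0.123), then Sipa1l3 (edgeR adjusted p 0.190). At unadjusted p under 0.05 there were 351 genes of positive interaction (1.78%) and 356 of negative interaction (1.81%). DESeq2 called 2 genes, Ryr1 and Sipa1l3, edgeR called 2 without WT replicate 5 and 1 each without Tyrobp-KO replicate 6 or Q175_Tyrobp-KO replicate 1, and limma-voom and limma-trend called none. The same edgeR fit called 3544 genes (18.0%) for the Q175 effect averaged over Tyrobp genotype and 41 (0.208%) for the Tyrobp effect averaged over Q175 genotype. Of the 19667 genes, 9829 had a 95% interval of the interaction within 0.5 either side of 0 on the log2 scale. The values below are therefore sizes, directions and counts over gene lists, set beside those of all genes. The median interaction of all genes was 0.00, with 9949 of 19667 negative.

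The Q175 effect tended to be the smaller one in the absence of Tyrobp. Among the 3544 genes called for the average Q175 effect, 2206 (62.2%) had the smaller Q175 effect without Tyrobp and 1338 the larger, against 54.4% smaller among all genes tested. Of these 3544 genes, 141 (3.98%) had a smaller effect without Tyrobp at unadjusted p under 0.05 and 29 (0.818%) a larger one. Among all genes tested these shares were 2.43% and 1.16%, so the tilt was also present in the background. Genes called lower with Q175 showed the imbalance more than genes called higher: the effect was smaller without Tyrobp in 1241 of 1804 (68.8%) of the lower genes and in 965 of 1740 (55.5%) of the higher ones. The median Q175 effect of the lower genes was -0.36 with Tyrobp and -0.29 without it. The lists below show which cell classes and pathways hold these differences.

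**Figure D1:**
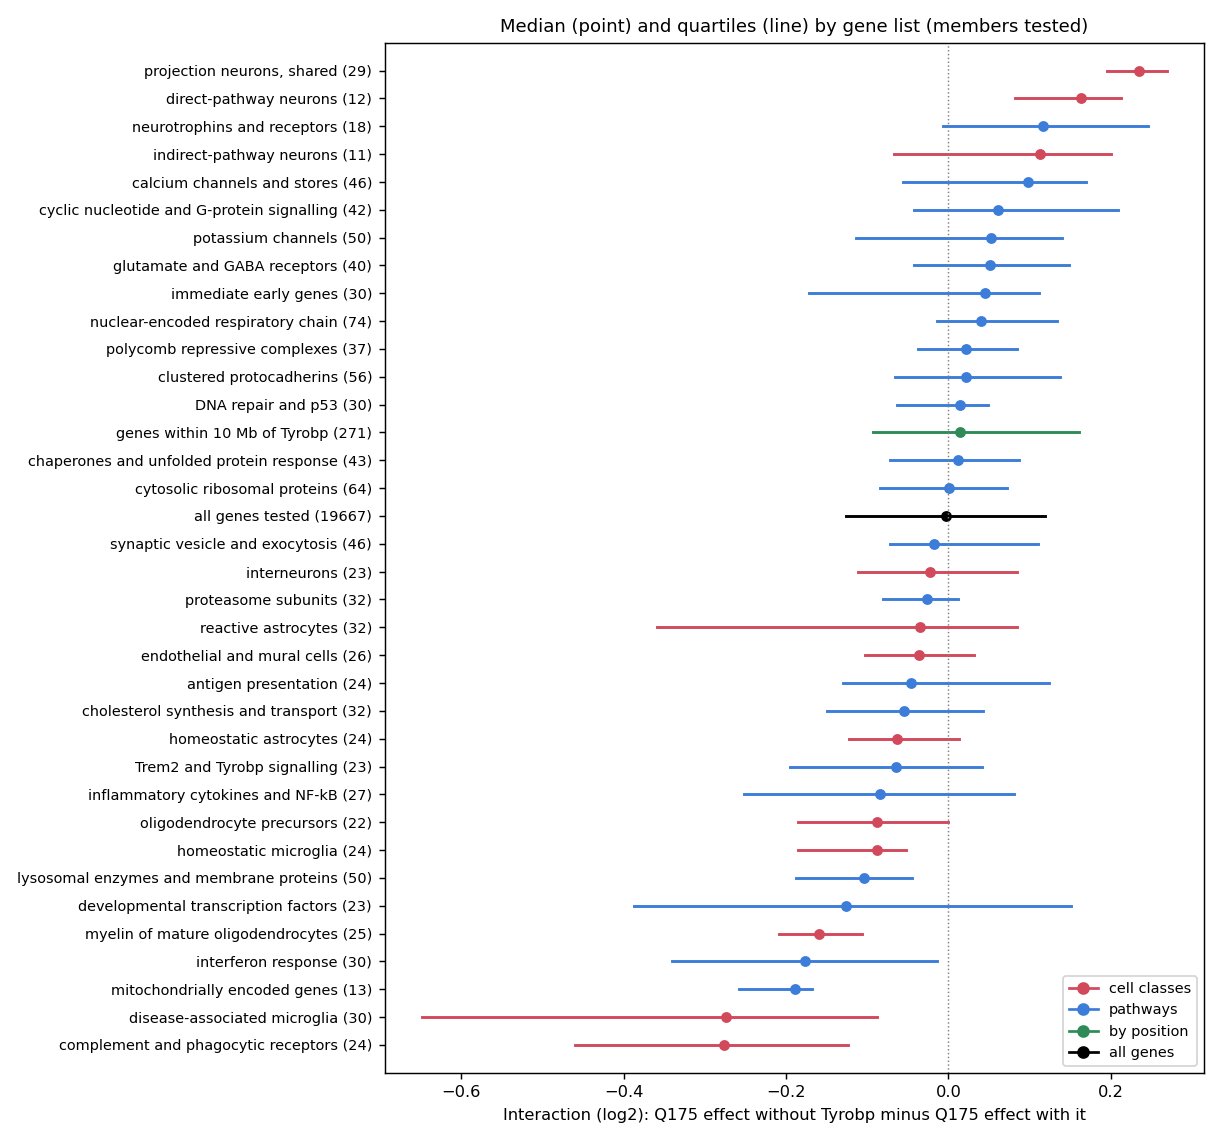
Median (point) and quartiles (line) of the interaction, in log2 units on the horizontal axis, for 12 cell class lists, the pathway lists, the genes within 10 Mb of Tyrobp and all genes tested, with the number of members tested in brackets. The complement and phagocytic receptor list and the disease-associated microglia list lie lowest, at -0.28 and -0.27. The shared projection neuron list lies highest at 0.23.

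Genes of disease-associated microglia had a Q175 effect above 0 at the median when Tyrobp was present and near 0 when it was absent. Of 32 genes listed, 30 passed the filter on low counts, and 27 of the 30 had a negative interaction, with a median of -0.27. At unadjusted p under 0.05 there were 10 negative members and no positive one, beside 1.81% and 1.78% of all genes. Members such as Cst7 may have passed the filter only through the Q175 libraries, where they were highest, so the counts over tested members are a description. With no filter all 32 were fitted, 28 were negative with a median of -0.27, and 9 were negative at unadjusted p under 0.05. Among the 24 members with a mean over all libraries of at least 1 CPM, 22 were negative with a median of -0.21, 6 of them at unadjusted p under 0.05. The median Q175 effect was 0.24 with Tyrobp and -0.03 without it. The median Tyrobp effect was 0.01 without Q175 and -0.17 with it. In bulk tissue, fewer cells of a type and less RNA per cell cannot be told apart.

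The mean log2 CPM of the 30 members was 3.78, 3.94, 3.97, 3.89, 3.98 and 4.10 in WT and 3.85, 3.71, 3.95, 4.15, 3.74 and 3.64 in Tyrobp-KO. It was 4.06, 4.38, 4.49, 4.35, 4.52 and 4.53 in Q175 and 3.78, 3.79, 3.58, 3.93, 3.81 and 4.13 in Q175_Tyrobp-KO. The level of 5 of the 6 Q175 libraries lay above all libraries of the other groups, and Q175 replicate 1 lay among the highest of them. The difference of differences was -0.45 ± 0.14 (SE, n = 6 a group), and -0.18 when the median over members was taken in each library in place of the mean. The median interaction was -0.27 in males and -0.25 in females. With WT replicate 3, the sole WT animal that shares the Q175 prefix, as the only WT library, the median was -0.16 with 24 of 31 members negative. A group of 1 library has no spread of its own, so no p-values are given for that fit.

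**Figure D2:**
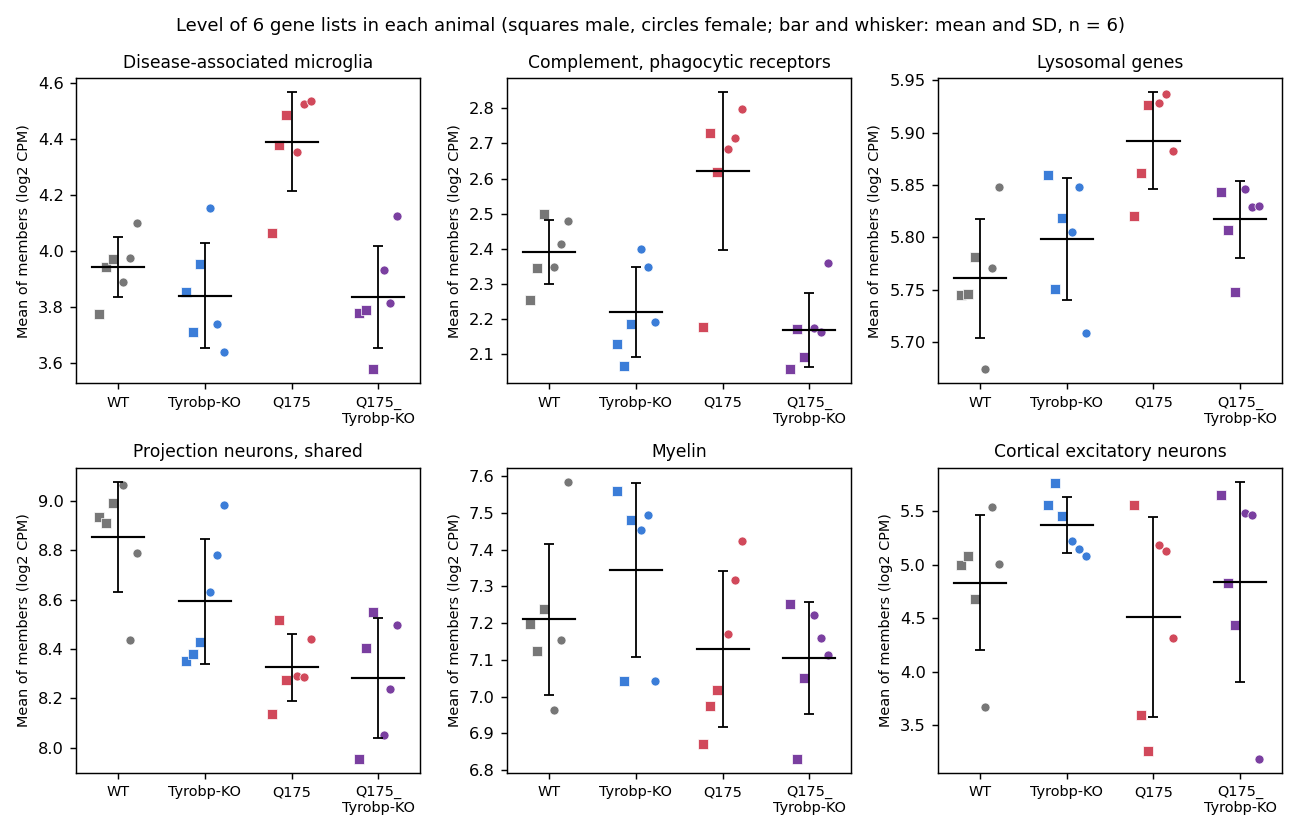
Level of 6 gene lists in each of the 24 animals, as the mean log2 CPM of the members tested, by genotype. Squares are males, circles are females, the bar and whisker are the mean and SD of 6 animals. In the disease-associated microglia panel 5 of 6 Q175 animals lie above all animals of the other groups, while the cortical neuron level spreads from 3.19 to 5.77.

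Among the receptors of this program, Clec7a, which encodes the pattern receptor Dectin-1, was at 2.44 CPM in the lowest Q175 library, 2.85 at the median and 3.33 in the highest. It was at most 0.791 CPM in WT, 0.619 in Tyrobp-KO and 0.835 in Q175_Tyrobp-KO. Each Q175 library lay above each of the other 18. The Q175 effect on Clec7a was 2.36 ± 0.47 (SE) with Tyrobp and 0.14 ± 0.59 without it, an interaction of -2.21 ± 0.76 (unadjusted p 0.00727). Itgax, the integrin CD11c, was at 0.852 to 2.93 CPM in Q175 and at most 0.675 CPM elsewhere, also without overlap, with an interaction of -1.21 ± 0.91 (unadjusted p 0.194). Trem2, the ligand-binding partner of Tyrobp, was at 14.5 to 21.3 CPM in Q175 (median 19.3) and 11.1 to 14.4 CPM in Q175_Tyrobp-KO (median 12.6), ranges that did not overlap but came close. WT (14.5 to 17.0 CPM) overlapped with Q175. The interaction of Trem2 was -0.37 ± 0.13 (unadjusted p 0.00671), -0.09 in males and -0.65 in females.

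Lyz2, Ccl6 and Cst7 encode secreted proteins. Lyz2, lysozyme of myeloid cells, was at 4.71 to 8.02 CPM in WT (median 6.48) and 3.37 to 6.79 CPM in Tyrobp-KO (median 4.28). It was at 6.08 to 13.9 CPM in Q175 (median 13.4) and 3.99 to 5.81 CPM in Q175_Tyrobp-KO (median 4.95). In Q175, 5 animals were at 12.04 CPM or more and replicate 1 was at 6.08. The interaction of Lyz2 was -0.88 ± 0.24, the smallest p of any member (unadjusted p 0.000979, edgeR adjusted p 0.999). Ccl6, a chemokine, had an interaction of -0.98 ± 0.27 (unadjusted p 0.00135), with medians of 1.38 CPM in WT, 1.93 in Tyrobp-KO, 2.83 in Q175 and 1.81 in Q175_Tyrobp-KO. Its Q175 range (2.05 to 3.35 CPM) overlapped with that of Q175_Tyrobp-KO (1.34 to 2.96 CPM). Cst7, the protease inhibitor cystatin F, was at 0.460 to 1.69 CPM in Q175 and at most 0.410 CPM elsewhere, with an interaction of -2.53 ± 0.79 (unadjusted p 0.00327).

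The other members at unadjusted p under 0.05 were Lgals3 (-1.21 ± 0.55), the tetraspanins Cd9 (-0.45 ± 0.14) and Cd63 (-0.32 ± 0.15), and the cathepsins Ctss (-0.30 ± 0.13) and Ctsd (-0.25 ± 0.09). Apoe and Timp2 were near 0. Apoe, the lipid carrier that astrocytes also make, had -0.03 ± 0.13, and Timp2 had -0.07 ± 0.08 with Q175 effects of 0.47 and 0.40. Igf1, Spp1 and Gpnmb, secreted or membrane proteins of the program, had -0.46 ± 0.35, -0.66 ± 0.70 and -0.45 ± 0.35, and did not pass at unadjusted p under 0.05. The 3 members of positive interaction were Cadm1, Lpl and Cd300lf. Cd300lf was below 1 CPM on average in WT and its interaction was 0.71 ± 0.57.

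**Figure D3:**
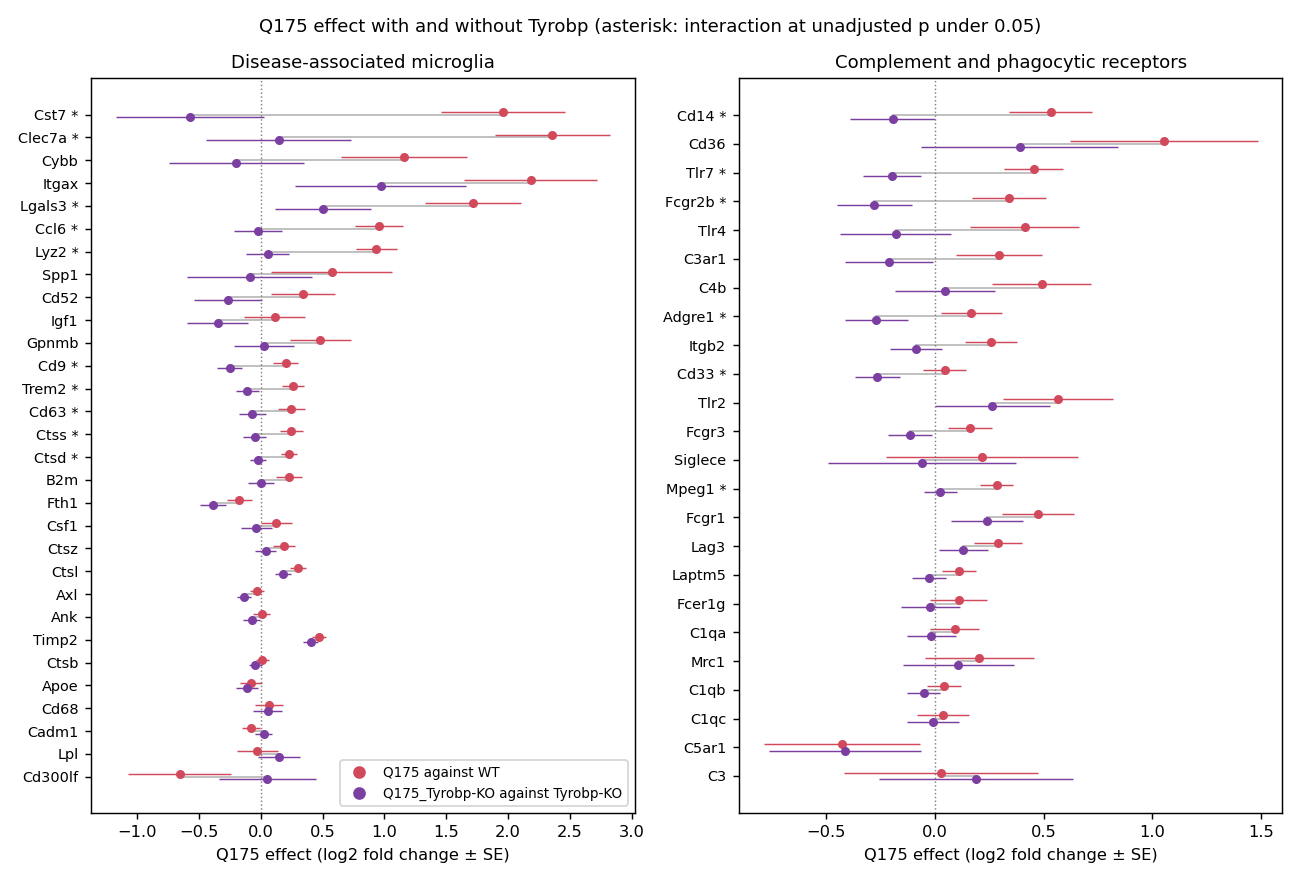
Q175 effect (log2 fold change ± SE, horizontal axis) of each tested member of the disease-associated microglia list (left, 30 genes) and the complement and phagocytic receptor list (right, 24 genes), red with Tyrobp and purple without it. An asterisk marks the 10 and 6 members whose interaction had an unadjusted p under 0.05. For most members the red point lies to the right of the purple one.

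Complement and phagocytic receptor genes had a median near that of the disease-associated list. Of 28 listed, 24 were tested, 22 were negative and the median was -0.28. At unadjusted p under 0.05 there were 6 negative members (25%) and no positive one, beside 1.81% and 1.78% of all genes. Here too, members of low count may have passed the filter only through the group where they were highest, so these counts are a description. The median Q175 effect was 0.24 with Tyrobp and -0.04 without it. Their mean log2 CPM was 2.18, 2.73, 2.62, 2.68, 2.71 and 2.80 in the Q175 libraries, 2.26 to 2.50 in WT, 2.07 to 2.40 in Tyrobp-KO and 2.06 to 2.36 in Q175_Tyrobp-KO. Again 5 Q175 animals lay above all others, and replicate 1 lay within the range of the other groups. The difference of differences was -0.28 ± 0.12 (SE, n = 6 a group). The median was -0.19 in males and -0.39 in females, and -0.16 with WT replicate 3 as the only WT library.

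The 6 members at unadjusted p under 0.05 were receptors of the cell surface or endosome and a pore-forming protein. Tlr7, the endosomal sensor of single-stranded RNA, had an interaction of -0.65 ± 0.19 (unadjusted p 0.00199), with 2.83 to 3.87 CPM in Q175 and 2.33 to 3.81 in Q175_Tyrobp-KO. In Q175_Tyrobp-KO, 5 animals lay at 2.33 to 2.79 CPM and replicate 6 at 3.81. Cd14, the lipopolysaccharide co-receptor, was at 2.50 to 4.53 CPM in Q175 and 1.33 to 2.23 CPM in Q175_Tyrobp-KO, which did not overlap, and had -0.73 ± 0.27 (unadjusted p 0.0127). Fcgr2b, the inhibitory receptor for immunoglobulin G, had -0.62 ± 0.24, Adgre1 (F4/80) had -0.44 ± 0.20, the sialic acid receptor Cd33 had -0.31 ± 0.14 and the perforin-like Mpeg1 had -0.26 ± 0.11. The complement genes C1qa, C1qb and C1qc, subunits of the initiator of the classical pathway, had -0.11 ± 0.16, -0.10 ± 0.11 and -0.05 ± 0.17.

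The homeostatic program had a median closer to 0. All 24 listed genes were tested, 20 were negative, and the median was -0.09 with 2 negative members at unadjusted p under 0.05. Among them was Gpr34 (-0.28 ± 0.14), a lysophosphatidylserine receptor. The interval of the interaction lay within 0.5 either side of 0 for 17 of the 24. P2ry12, Tmem119, Cx3cr1 and Csf1r, which define the class, had -0.10 ± 0.10, 0.00 ± 0.16, -0.15 ± 0.12 and -0.07 ± 0.09. The median Q175 effect of the list was 0.01 with Tyrobp and -0.09 without it. The mean log2 CPM was 3.97 to 4.21 in Q175 and 3.91 to 4.13 in Q175_Tyrobp-KO, which overlapped.

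The kinases and adaptors that act below Tyrobp were near the background. Of 27 genes of Trem2 and Tyrobp signalling, 23 were tested, 16 were negative, none passed at unadjusted p under 0.05 in either direction, and the median was -0.06 (0.03 in males, -0.16 in females). The kinase Syk had -0.34 ± 0.26 and Plcg2, a phospholipase below it, had -0.15 ± 0.20. The lipid phosphatase Inpp5d had 0.09 ± 0.12. Pik3ap1, an adaptor for phosphoinositide 3-kinase, had the smallest p of the list (-0.40 ± 0.25, unadjusted p 0.123), with Q175 effects of 0.62 ± 0.18 with Tyrobp and 0.22 ± 0.18 without it.

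Lysosomal genes had small negative interactions, nearly all of 1 sign. All 50 listed were tested, 45 had a negative interaction, the median was -0.10, and 9 negative and no positive member had an unadjusted p under 0.05. Their mean log2 CPM was 5.82 to 5.94 in Q175 and 5.75 to 5.85 in Q175_Tyrobp-KO, ranges that overlapped, and the difference of differences was -0.11 ± 0.04 (SE, n = 6 a group). Lamp1, an abundant protein of the lysosomal membrane, was at 269 to 330 CPM in WT, 286 to 347 in Tyrobp-KO, 293 to 375 in Q175 and 286 to 310 in Q175_Tyrobp-KO, with an interaction of -0.26 ± 0.09 (unadjusted p 0.00638). Lamp2 had -0.26 ± 0.09 and the protease Lgmn -0.21 ± 0.08. The interval lay within 0.5 either side of 0 for 45 of the 50, so these differences were small. The median was -0.13 in males, -0.10 in females and -0.09 with WT replicate 3 as the only WT library. Ctsd and Ctss stand in a microglial list as well.

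Several microglial genes were called for the average Tyrobp effect, which cannot be told apart from a difference that the animal-number prefixes mark. Of the 41 called genes, 23 lay within 10 Mb of Tyrobp and 17 lay elsewhere (5 of them farther along chromosome 7, among them Cd33 and Itgax), Tyrobp itself not counted. Of those 17, 14 were lower without Tyrobp, and 12 of the 14 had a negative interaction, that is, a more negative Tyrobp effect in the presence of Q175. Clec7a had a Tyrobp effect of -1.21 without Q175 and -3.42 with it, Lyz2 -0.42 and -1.30, Trem2 -0.14 and -0.51, and Adgre1 -0.27 and -0.71. Lag3, an immune checkpoint receptor that microglia express, had nearly equal effects of -0.62 and -0.77. C1qb had -0.29 and -0.39, and Cd33 had -0.69 and -0.997. The Tyrobp effects share animals with the Q175 effects above and are the same interaction seen from its other side.

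Among reactive astrocyte genes, Gfap and Serpina3n had negative interactions while the median of the list was near 0. Of 36 reactive astrocyte genes, 32 were tested, 19 were negative and the median was -0.03, with 4 negative and no positive member at unadjusted p under 0.05. Gfap, the intermediate filament that marks reactive astrocytes, was at 90.9 to 164 CPM in WT (median 136), 87.9 to 155 in Tyrobp-KO (145), 155 to 254 in Q175 (203) and 64.1 to 148 in Q175_Tyrobp-KO (130). The lowest Q175 library lay above the highest Q175_Tyrobp-KO library and overlapped with WT. The interaction of Gfap was -0.80 ± 0.27 (unadjusted p 0.00779), -0.92 in males and -0.68 in females. Serpina3n, a secreted protease inhibitor, was at 9.48 to 14.0 CPM in Q175, above all other libraries (at most 9.32), and had -0.75 ± 0.27 (unadjusted p 0.0103). Its Q175 effect was 1.01 ± 0.19 with Tyrobp and 0.26 ± 0.19 without it, and its interaction was -1.15 in males and -0.28 in females. The other 2 members at unadjusted p under 0.05, Cd14 and the adhesion receptor Cd44 (-0.59 ± 0.24), are also made by microglia. Vim, another intermediate filament, had -0.15 ± 0.17. The list's median was -0.25 in males and 0.02 in females.

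**Figure D4:**
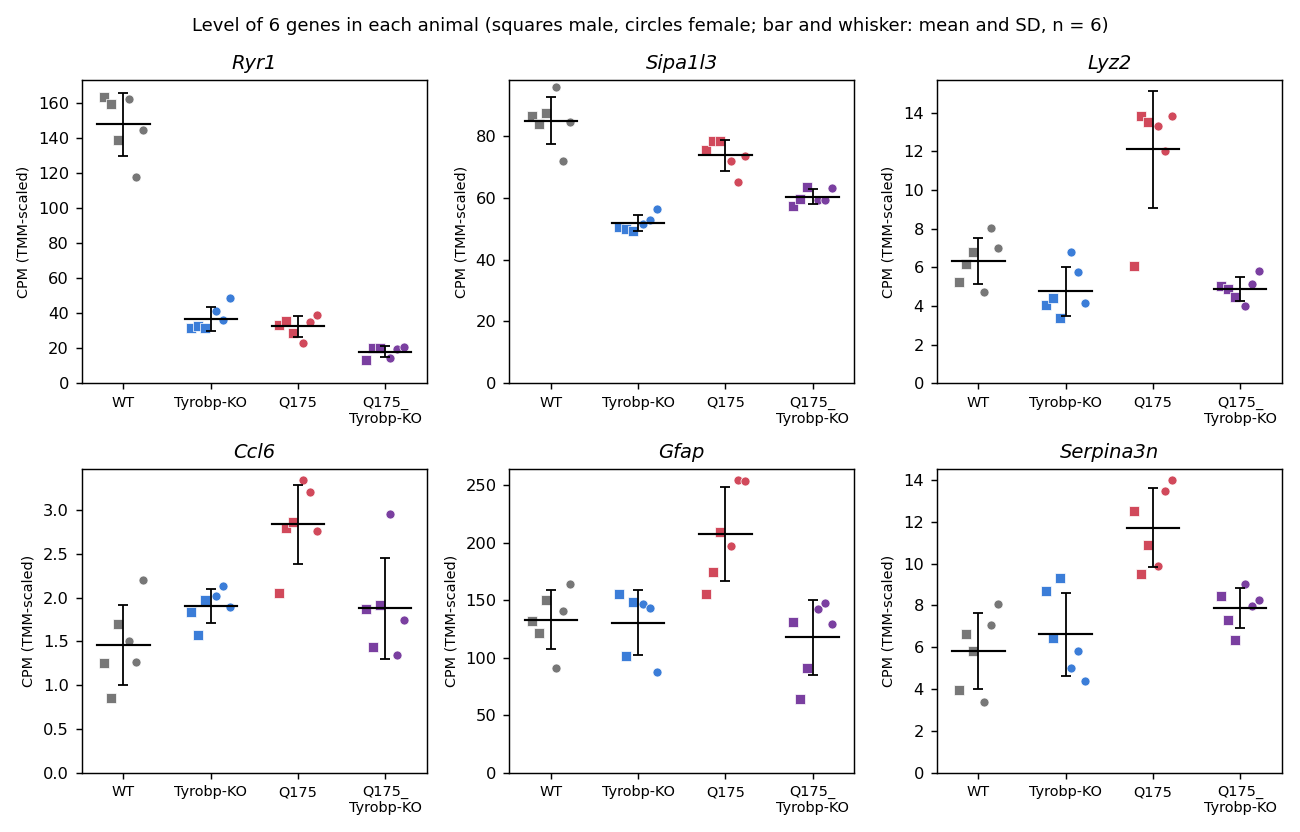
Level in CPM of Ryr1, Sipa1l3, Lyz2, Ccl6, Gfap and Serpina3n in each of the 24 animals by genotype. Squares are males, circles are females, the bar and whisker are the mean and SD of 6 animals. Ryr1 and Sipa1l3 are lower in Tyrobp-KO than in WT, and the other 4 genes have their highest median in Q175.

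Homeostatic astrocyte genes had Q175 effects of like size with and without Tyrobp. All 24 were tested, 15 were negative, none passed at unadjusted p under 0.05, and 22 of 24 intervals lay within 0.5 either side of 0. The median was -0.06, with Q175 effects of -0.13 with Tyrobp and -0.20 without it. Of the 24, 14 were called lower for the average Q175 effect, beside 1804 of all 19667 genes tested. Slc1a3, the glutamate transporter GLAST, had -0.14 ± 0.08 and Mfge8, a secreted bridge for phagocytosis, had 0.21 ± 0.11.

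Myelin genes had a negative median with wide overlap between libraries. Of 25 tested, 24 were negative and the median was -0.16, with 2 negative members at unadjusted p under 0.05. Opalin, a membrane protein of myelinating cells, was at 35.3 to 60.6 CPM in WT, 42.1 to 57.4 in Tyrobp-KO, 42.8 to 61.5 in Q175 and 38.8 to 53.8 in Q175_Tyrobp-KO, with an interaction of -0.36 ± 0.16. The lipocalin Apod had -0.38 ± 0.18. Mbp, a structural protein of myelin, had -0.16 ± 0.17. The mean log2 CPM of the list spanned 6.96 to 7.59 in WT, 7.04 to 7.56 in Tyrobp-KO, 6.87 to 7.42 in Q175 and 6.83 to 7.25 in Q175_Tyrobp-KO. The difference of differences was -0.16 ± 0.17 (SE, n = 6 a group), no larger than its error. With WT replicate 3 as the only WT library the median was -0.05.

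Precursors of oligodendrocytes had a median of -0.09, with 16 of 22 negative and none at unadjusted p under 0.05. Enpp6, which marks newly forming oligodendrocytes, had -0.29 ± 0.15 with Q175 effects of 0.59 and 0.30. Endothelial and mural genes had a median of -0.04, and 1 of 26 was positive at unadjusted p under 0.05: Tie1, a receptor kinase of endothelium (0.44 ± 0.16, unadjusted p 0.00808). Interneuron genes had a median of -0.02, with 13 of 23 negative. Pthlh, a peptide hormone gene of interneurons, was the only one at unadjusted p under 0.05 (0.45 ± 0.22).

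Projection neuron genes had the highest median of the lists, positive in males and negative in females. All 29 shared markers had a positive interaction and the median was 0.23, but none passed at unadjusted p under 0.05. The median Q175 effect was -0.55 with Tyrobp and -0.31 without it. The median Tyrobp effect was -0.26 without Q175 and -0.03 with it. The mean log2 CPM was 8.94, 8.91, 8.99, 9.06, 8.44 and 8.79 in WT and 8.35, 8.38, 8.43, 8.63, 8.78 and 8.99 in Tyrobp-KO. It was 8.14, 8.52, 8.27, 8.29, 8.29 and 8.44 in Q175 and 7.96, 8.41, 8.55, 8.05, 8.24 and 8.50 in Q175_Tyrobp-KO. The 3 Tyrobp-KO males lay below the 3 WT males without overlap, whereas the females of these 2 groups overlapped. The 2 groups with Q175 overlapped in both sexes. The difference of differences over all animals was 0.22 ± 0.18 (SE, n = 6 a group).

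By sex, the median of the 29 genes was 0.60 in males and -0.12 in females. All 29 were positive in the fit of males alone, 24 of them at unadjusted p under 0.05, where 4.23% of all genes were positive at that level. In the fit of females alone 23 of 29 were negative and none passed. In the test of the difference between sexes, 14 of the 29 were lower in females at unadjusted p under 0.05, beside 2.81% of all genes lower and 2.44% higher, and no gene of the table passed that test after adjustment (smallest edgeR adjusted p 0.907). Adcy5, the adenylyl cyclase of these neurons, shows the pattern: 1149 to 1854 CPM in WT (median 1735), 1072 to 1722 in Tyrobp-KO (1261), 808 to 1112 in Q175 (948) and 720 to 1180 in Q175_Tyrobp-KO (981). Its interaction was 0.33 ± 0.19, 0.67 in males and -0.01 in females.

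Cortical neuron levels also differed between these libraries. The 3 Tyrobp-KO males, which were low in projection neuron genes, had cortical neuron levels of 5.56, 5.77 and 5.46, against 4.99, 5.08 and 4.68 in the WT males. The Tyrobp-KO females had cortical levels of 5.08 to 5.22 and projection neuron levels of 8.63 to 8.99. Cortical levels were 3.26 to 5.56 in Q175 and 3.19 to 5.66 in Q175_Tyrobp-KO. WT replicate 5, a female, was low in projection neuron genes (8.44) and had a cortical level of 5.54. Without that library the median was 0.33, with 7 of 29 genes at unadjusted p under 0.05, beside 3.07% of all genes positive. With the cortical level as a covariate all 29 genes stayed positive and the median was 0.17, with 1 at unadjusted p under 0.05. In that fit 2.12% of all genes were positive with an unadjusted p under 0.05. The part of cortical tissue in the difference between sexes was not tested.

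Markers of the 2 output pathways gave lower medians of the same sign. Direct-pathway genes (12 tested) had a median of 0.16, 0.41 in males and -0.07 in females, and indirect-pathway genes (11 of 12 tested) had 0.11, 0.51 in males and -0.15 in females. Among direct-pathway genes, Drd1, the dopamine receptor that defines them, had 0.19 ± 0.21, and Pdyn, the precursor of dynorphin, had 0.28 ± 0.19. Among indirect-pathway genes, Penk, the precursor of enkephalin, fell on average with Q175 and had Q175 effects of -1.12 with Tyrobp and -0.91 without it, an interaction of 0.21 ± 0.22. Gpr6, an orphan receptor of these cells, was the sole member of the 2 lists at unadjusted p under 0.05 (0.38 ± 0.17, unadjusted p 0.0322). It was at 57.8 to 90.8 CPM in WT, 51.3 to 76.2 in Tyrobp-KO, 38.9 to 55.0 in Q175 and 38.6 to 57.8 in Q175_Tyrobp-KO, so that the Q175 and WT ranges did not overlap and the Q175_Tyrobp-KO and Tyrobp-KO ranges did.

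Lists of neuronal signalling had medians between -0.02 and 0.12. The sign turned by sex for potassium channels (-0.04 in males, 0.08 in females) and synaptic vesicle genes (-0.08 and 0.04). It also turned for cyclic nucleotide and G-protein genes (0.13 and -0.03). The other lists here were positive in both sexes. In the test of the difference between sexes, 8 of 42 cyclic nucleotide genes were lower in females and 1 higher at unadjusted p under 0.05. Of all genes 2.81% were lower and 2.44% higher. Potassium channels (50 tested) had a median of 0.05 and 3 positive members (6%) at unadjusted p under 0.05, beside 1.78% of all genes. Among them were Kcnip2 (0.26 ± 0.12), a calcium-binding channel subunit, and Kcna3 (0.42 ± 0.17), a channel that microglia also carry. Cyclic nucleotide and G-protein genes (42 tested) had a median of 0.06 and 1 positive member at that level, Rgs14, a regulator of G proteins, which was at 48.7 to 76.2 CPM in WT, 49.99 to 71.5 in Tyrobp-KO, 30.8 to 34.97 in Q175 and 33.6 to 37.9 in Q175_Tyrobp-KO. Both pairs were without overlap, and the Q175 effect of Rgs14 was -0.98 ± 0.09 with Tyrobp and -0.66 ± 0.09 without it, an interaction of 0.32 ± 0.12. Calcium channels and stores (46) had 0.10, glutamate and GABA receptors (40) 0.05, neurotrophins and their receptors (18) 0.12, and synaptic vesicle genes (46) -0.02. In each of these 4 lists 1 member passed at unadjusted p under 0.05. That was 2.17%, 2.5%, 5.56% and 2.17% of the members, beside 1.78% of all genes positive and 1.81% negative. The members were Ryr1 (1.16 ± 0.20), which lies near Tyrobp, the inhibitory receptor subunit Gabbr1 (0.15 ± 0.07), the neuropeptide precursor Vgf (0.31 ± 0.13) and the calcium sensor Syt3 (0.24 ± 0.10).

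Interferon and antigen presentation genes had medians of opposite sign in males and females, with few members past the test of that difference. Of 30 interferon response genes, 24 were negative with a median of -0.18, none at unadjusted p under 0.05. The median was -0.47 in males and 0.19 in females, and 1 of 30 members was higher in females and none lower at unadjusted p under 0.05 in the test of the difference between sexes. The mean log2 CPM was 1.56, 1.49 and 1.41 in Q175_Tyrobp-KO males, against 2.68, 2.21 and 2.72 in Q175_Tyrobp-KO females. Tyrobp-KO replicate 4 was at 3.03 and the other Tyrobp-KO libraries at 1.62 to 1.75. Without replicate 4 the median was 0.05 with 20 of 30 positive. Xaf1, an interferon-induced gene, had the smallest p of the list (-0.36 ± 0.19, unadjusted p 0.0669). Antigen presentation genes (24) had a median of -0.05, -0.27 in males and 0.19 in females, where 2 of 24 were higher in females and none lower in that test. In this list B2m, the light chain of class I molecules, had -0.23 ± 0.15. Cytokine and NF-kB genes (27 of 36 tested) had a median of -0.08 and none at unadjusted p under 0.05.

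**Figure D5:**
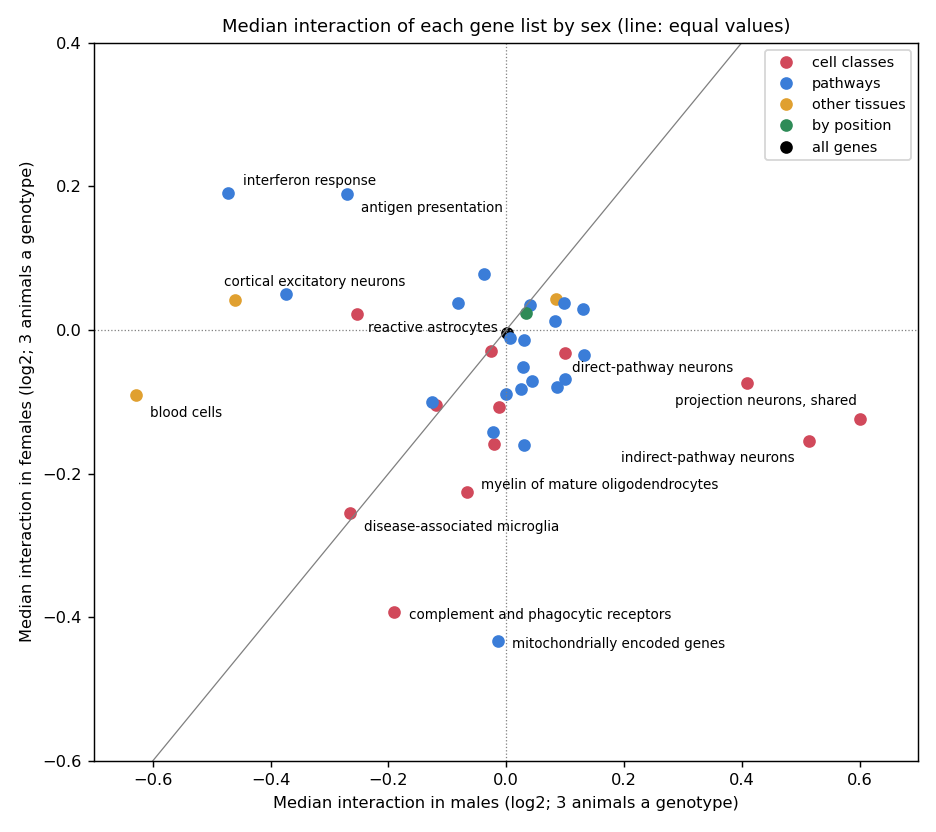
Median interaction of each gene list in females against that in males (log2, 3 animals a genotype in each sex), with the line of equal values. The choroid plexus and ependyma list, at -3.65 in males and 1.02 in females, lies outside the axes and is not drawn. The lists of disease-associated microglia and of complement and phagocytic receptors are negative in both sexes. The projection neuron lists are positive in males and slightly negative in females.

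Nuclear-encoded respiratory chain genes (74) had a median of 0.04, cytosolic ribosomal proteins (64) 0.00, proteasome subunits (32) -0.03 and chaperones and the unfolded protein response (43) 0.01. The interval lay within 0.5 either side of 0 for 58 of 74, 52 of 64, 32 of 32 and 35 of 43 of them. Mitochondrially encoded genes had a median of -0.19, with 12 of 13 negative and none at unadjusted p under 0.05. That median was -0.01 in males and -0.43 in females, and 0.01 with WT replicate 3 as the only WT library. The share of mitochondrial reads was 3.96% to 6.58%. Cholesterol genes (32) had a median of -0.05, with 2 negative at unadjusted p under 0.05, among them Nsdhl (-0.27 ± 0.13), a dehydrogenase of the pathway.

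Some lists outside the glia held members that rose on average with Q175. Developmental transcription factors, which polycomb complexes keep silent in adult neurons, were tested for 23 of 50 members. Of the 23, 13 were called higher for the average Q175 effect, beside 1740 of all 19667 genes tested. Since the low-count filter can pass a gene through the Q175 groups alone, neither the count of 13 nor the medians support anything about the list. The median interaction of the 23 was -0.13 with 15 negative, and with no filter on low counts the median was -0.37. Their median Q175 effect was 0.54 with Tyrobp and 0.65 without it. Onecut1 had 5.41 and 6.19, and Wt1 had 5.28 and 5.18, both from WT means below 1 CPM, where a fold change is poorly determined. Clustered protocadherins (56 of 58 tested), adhesion proteins of neurons, had 23 called higher, beside 1740 of all 19667 genes. Their median interaction was 0.02 and their median Q175 effects were 0.16 and 0.20. Pcdhb9 was at 12.4 to 16.4 CPM in WT, 15.1 to 16.9 in Tyrobp-KO, 21.6 to 27.8 in Q175 and 20.8 to 25.4 in Q175_Tyrobp-KO, with no overlap in either Q175 comparison and an interaction of -0.21 ± 0.10. Polycomb genes themselves (37) had a median of 0.02 and 34 intervals within 0.5 either side of 0. Immediate early genes (30), transcription factors that follow neuronal activity, had 14 members called lower on average, beside 1804 of all 19667 genes. Their median interaction was 0.05 and their median Q175 effects were -0.34 and -0.43. At unadjusted p under 0.05 the list held Npas4 (0.79 ± 0.37) and Maff (-0.96 ± 0.38). DNA repair and p53 genes (30) had 0.01.

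The 2 genes of smallest interaction p lay on the chromosome of the deleted gene, near to it. Ryr1, the calcium release channel first known from skeletal muscle (chromosome 7, 29003344 to 29125179), lies 1.29 Mb from Tyrobp, and Sipa1l3, a GTPase-activating protein (chromosome 7, 29320372 to 29518641), lies 0.895 Mb from it. Ryr1 was at 117 to 163.3 CPM in WT (median 152), 31.3 to 48.4 in Tyrobp-KO (34.1), 22.8 to 39.1 in Q175 (34.1) and 13.2 to 20.4 in Q175_Tyrobp-KO (19.9). The medians of Tyrobp-KO and Q175 were equal to 3 digits, and Q175_Tyrobp-KO lay below both groups without overlapping either. The Q175 effect was -2.19 ± 0.14 with Tyrobp and -1.03 ± 0.14 without it, an interaction of 1.16 ± 0.20 with a 95% interval of 0.76 to 1.57 (edgeR adjusted p 0.123, DESeq2 adjusted p 7.22e-06). It was 1.41 in males and 0.93 in females.

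Sipa1l3 was at 71.9 to 95.8 CPM in WT (median 85.3), 49.4 to 56.4 in Tyrobp-KO (51.0), 65.0 to 78.5 in Q175 (74.3) and 57.4 to 63.4 in Q175_Tyrobp-KO (59.4). The Q175 effect of Sipa1l3 was -0.20 ± 0.06 with Tyrobp and 0.22 ± 0.06 without it. The interaction was 0.42 ± 0.08 (edgeR adjusted p 0.190, DESeq2 adjusted p 0.0226), 0.42 in males and 0.44 in females. Across the 271 tested genes within 10 Mb of Tyrobp the median was 0.01, and 11 positive (4.06%) and 3 negative (1.11%) members had an unadjusted p under 0.05, beside 1.78% and 1.81% of all genes. Among those 11 was Sbsn, 0.334 Mb from Tyrobp, with 0.74 ± 0.26. Among neighbours called for the average Tyrobp effect, Nudt19, a Nudix hydrolase gene, had effects without and with Q175 of -1.21 and -1.36, and Dmkn, next to Sbsn, had -1.67 and -1.69. Whether sequence near Tyrobp differs between these mice apart from the deletion was not tested.

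The remaining genes of smallest p belonged to no list. On the positive side, Tcf23 (3.15 ± 0.79), Gm15868, AK157302 and Gm16099 had group medians below 1 CPM. Dzip1l, a protein of the primary cilium, had 0.37 ± 0.11. Dzip1l was at 37.9 to 46.4 CPM in WT and 28.4 to 36.4 in Q175, without overlap, and at 32.7 to 43.8 in Tyrobp-KO and 33.9 to 41.3 in Q175_Tyrobp-KO, with overlap. On the negative side, Zfp456, a zinc finger gene, had -1.27 ± 0.30 (unadjusted p 0.000224), with medians of 0.644 CPM in WT, 0.898 in Tyrobp-KO, 1.53 in Q175 and 0.802 in Q175_Tyrobp-KO. Slc9a9, an endosomal sodium-proton exchanger, had -0.55 ± 0.14, Eln, the gene of elastin, -0.70 ± 0.19, and Cbfb, the partner of Runx factors, -0.51 ± 0.15. Cbfb was at 13.5 to 18.6 CPM in WT, 18.5 to 23.2 in Tyrobp-KO, 18.2 to 23.1 in Q175 and 12.1 to 22.3 in Q175_Tyrobp-KO.

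Markers of other tissue gave the widest spread. Of the 19 choroid plexus and ependyma genes, all 19 were negative with a median of -0.96, none at unadjusted p under 0.05. The median was -3.65 in males and 1.02 in females, and 0.16 without Q175 replicate 3. Without the 4 libraries of choroid level above 2, the median was -0.22 for disease-associated microglia (26 of 30 negative, 7 at unadjusted p under 0.05), -0.28 for complement and phagocytic receptors, -0.10 for lysosomal genes and 0.23 for shared projection neuron genes (29 of 29 positive). Libraries just inside that limit were Q175 replicate 6 (1.99) and Q175_Tyrobp-KO replicate 2 (1.91), and just outside it Q175 replicate 5 (2.21). With the cortical level as a covariate the median was -0.29 for disease-associated microglia (27 of 30 negative) and -0.30 for complement and phagocytic receptors.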

How the data were processed

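RNA-seq read counts per gene were analysed for 24 libraries of mouse striatum, 6 for each of 4 genotypes. The deposited table holds the authors' raw counts. Per the submitters' processing notes the tools were STAR, featureCounts and DESeq2, with the build named as GRCh38, although the 54532 identifiers are mouse Ensembl genes. Of the 54495 identifiers found in GENCODE M21 (GRCm38), 98.3% had the same chromosome, start and end, and coordinates are printed on that build. Use of strand in counting was not given in the sources used here, so overlapping genes may share counts.

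Genes were filtered with filterByExpr and scaled by TMM. The quasi-likelihood test of edgeR 4.0.16 (R 4.3.3) was fitted on all 24 libraries with genotype and sex as terms, with Benjamini-Hochberg adjustment over 19667 genes and a threshold of 0.05. Values by sex are from a model of 8 means, genotype by sex. Levels of a list are means of log2 CPM with a prior count of 2. Unadjusted p-values and SEs are from the same fit, and the median of a list carries no test. Scripts were tested on simulated counts. Alternatives used DESeq2 1.42.0, limma 3.58.1 and sva 3.50.0, other filters and scalings, each sex alone and each library left out. The alternatives with the choroid plexus or cortical level, without 4 libraries, and with WT replicate 3 alone were added after seeing the data.

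Groups came from the genotype labels, and replicate numbers are only names in accession order. The labels do not say how animals relate, so p-values measure the spread between these samples. The gene lists (38 lists, 1202 genes, 2 of them not matched) and the comparison were chosen with earlier results of these data known. Genes named by rule were Tyrobp, Htt, the 8 of smallest interaction p in each direction, the 2 of smallest p in each cell class list and the 1 of smallest p in each pathway list. The remaining names were chosen once values had been seen, as list members at unadjusted p under 0.05 or as defining markers. Library totals of 25482686 to 34626720 counts limit precision for genes below 1 CPM. Results for some genes are not reported here.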

Additional observations from a re-analysis of the deposited data

Results flagged for a closer look

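In 26 of 400 groups tested (1 in 20 by chance would be 20) a sample stood apart from the other 5 of its genotype. Several of these fell in the same libraries. Q175 replicate 1 was low for Lyz2 (6.08 CPM, others 12.04 to 13.9), for Pdyn (44.4 CPM), for Irx5 (0 CPM) and for the levels of direct-pathway neurons (5.55 mean log2 CPM) and complement and phagocytic receptors (2.18). WT replicate 5 was low for Adcy5 (1149 CPM, others 1584 to 1854), Gpr6 (57.8 CPM) and Sez6 (359 CPM). WT replicate 6 was low for Htt (208.6 CPM) and Maff (0.628 CPM), and high for Xaf1 (12.7 CPM) and for the levels of oligodendrocyte precursors (5.07) and ribosomal proteins (6.76).

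Tyrobp-KO replicate 4 was high for the levels of interferon response (3.03, others 1.62 to 1.75), antigen presentation (2.99) and reactive astrocytes (2.45), and low for Pthlh (3.84 CPM). Q175_Tyrobp-KO replicate 2 was low for Cd14 (1.33 CPM) and high for the levels of interneurons (3.62) and calcium channels (6.29). Q175_Tyrobp-KO replicate 6 was high for Tlr7 (3.81 CPM) and AK157302 (3.85 CPM), and replicate 5 for Cbx6 (416 CPM). Q175 replicate 5 was high for Tcf23 (0.184 CPM) and Slc9a9 (15.5 CPM), and Q175 replicate 4 was low for Itpr2 (19.9 CPM). No gene was called for a difference of the interaction between sexes by edgeR, and 1032 genes had an unadjusted p under 0.05.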

How the results depend on the processing

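No paired analysis was possible because the replicate numbers are names in accession order and the labels pair no animals. Genes called for the interaction numbered 0 in the main analysis, 1 with non-robust dispersion, 2 each with DESeq2, with 1 surrogate variable and with the cortical level as covariate, and 0 to 2 with a library left out (2 without WT replicate 5, 1 without Tyrobp-KO replicate 6 and 1 without Q175_Tyrobp-KO replicate 1). In the main analysis 351 genes were positive and 356 negative at unadjusted p under 0.05. With no filter on low counts these were 964 and 785, in males alone the positive were 840, and with WT replicate 3 alone as WT the negative were 541. Leaving out a library gave 252 to 612 positive (612 without WT replicate 5, 578 without Tyrobp-KO replicate 6) and 231 (without Tyrobp-KO replicate 3) to 440 negative genes. Calls for the average Q175 effect were 1242 in males, 1195 in females and 1507 with WT replicate 3 alone, where fewer samples were tested. Calls for the average Tyrobp effect were 19 in females alone and 82 with DESeq2. Genes at unadjusted p under 0.05 for the sex difference ranged from 759 to 1747 with a library left out, the lowest without WT replicate 5 and the highest without WT replicate 4.

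The medians of disease-associated microglia, of complement and phagocytic receptors and of lysosomal genes stayed negative under every alternative run (-0.33 to -0.16, -0.38 to -0.16 and -0.12 to -0.08). In males alone the median was 0.60 for shared, 0.41 for direct-pathway and 0.52 for indirect-pathway projection neurons, 0.10 for interneurons, -0.23 for reactive astrocytes, 0.0332 for Trem2 and Tyrobp signalling, 0.13 for cyclic nucleotide genes and 0.10 for protocadherins. In females alone it was -0.13, -0.0755 and -0.16 for the 3 projection neuron lists, -0.16 for Trem2 and Tyrobp signalling, -0.43 for mitochondrially encoded genes, -0.0733 for chaperones, 0.0296 for calcium channels, -0.0370 for cyclic nucleotide genes, 0.23 for developmental factors, -0.0168 for polycomb genes and -0.0704 for protocadherins. With WT replicate 3 alone it was 0.35 and 0.37 for direct- and indirect-pathway neurons, 0.14 for interneurons, 0.0108 for mitochondrially encoded genes, 0.17 for chaperones, 0.0062 for calcium channels, 0.14 for cyclic nucleotide genes, -0.51 for developmental factors and 0.0482 for polycomb genes, which ranged from 0.00365 to 0.0518 with a library left out. With no filter developmental factors had -0.37. The sign turned for Tyrobp in males (0.0694) and for Adcy5 in females (-0.0105). The cause was not tested for any of these.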
